A study of Mus musculus with 12 samples.

Results

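Zbtb16, Cd160, Trdc, Blk, Fcer1g and Sox13 are genes of innate-like T cells, the natural killer T (NKT) and gamma-delta T lineages. They are 6 of the 55487 genes in the deposited table and were chosen by name. Their RNA was measured in CD4+ T cells sorted from the spleen and peripheral lymph nodes of mice. The sort took CD62L+, CD44 low cells as naive, the state before contact with antigen, and CD62L-, CD44 high cells as effector. The mice were wild type (WT) or lacked Rinl (KO), a gene for an exchange factor of endosomal RAB5 GTPases, to ask what Rinl does in these cells. The 4 groups of 3 libraries are WT naive (libraries 1, 2 and 3), WT effector (4, 5 and 6), KO naive (7, 8 and 9) and KO effector (10, 11 and 12). The labels give no strain, age or altered part of Rinl. They also do not say that a group's libraries are from different mice, so p-values reflect the spread among these libraries alone, which may be technical.

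Innate-like T cells take on an effector state while they develop, before they meet a foreign antigen. Zbtb16 encodes PLZF, a BTB zinc finger transcription factor that directs this programme in NKT cells and in some gamma-delta T cells. Invariant NKT cells recognise lipids on CD1d, many of them carry CD4, and their surface phenotype is that of CD44 high cells. Gamma-delta T cells pair a delta with a gamma receptor chain in place of alpha and beta, and those that make interleukin-17 use SOX13 and the kinase BLK.

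Total counts ran from 11606251 to 24320247 per library. Rinl stood at 285 to 299 CPM in WT naive and at 32.2 to 34.4 CPM in KO naive libraries, and at 437 to 463 and 45.8 to 49.4 CPM in WT and KO effector libraries, which fits the labels. CPM here are counts scaled to library size with TMM factors. The 8 markers of CD4 T cells summed to 5262 to 5635 CPM in every library, and Cd8a did not exceed a mean of 0.408 CPM in any group. Together with Cd8b1, the other CD8 marker, it summed to 19.5 to 21.8 CPM in naive libraries and 5.52 to 8.04 CPM in effector libraries. A gene is called when edgeR's quasi-likelihood test gives an adjusted p under 0.05 over the 15905 genes tested. Sox13 had too few counts to be tested, and the other 5 genes passed the filter.

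Zbtb16 and Cd160 were transcripts of the effector populations, Trdc was more abundant in naive cells, and Blk, Fcer1g and Sox13 averaged under 1.5 CPM in every group. In FPKM, the deposited level per gene length, the order in WT effector cells was Cd160 (22.8 ± 1.59, SD, n = 3), Zbtb16 (8.04 ± 1.31), Fcer1g (1.98 ± 0.96), Trdc (1.72 ± 0.51), Blk (0.239 ± 0.096) and Sox13 (0.136 ± 0.020). Fcer1g and Trdc overlapped each other in that order, as did Blk and Sox13. In WT naive cells Trdc led at 2.71 ± 0.43 FPKM, followed by Fcer1g (0.955 ± 0.802) and Cd160 (0.629 ± 0.296), which overlapped, and Zbtb16 was at 0. The KO groups had the same first 3 genes in the same order, with Cd160 at 18.2 ± 2.55 and Zbtb16 at 4.75 ± 1.08 FPKM in effector cells.

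**Figure D1:**
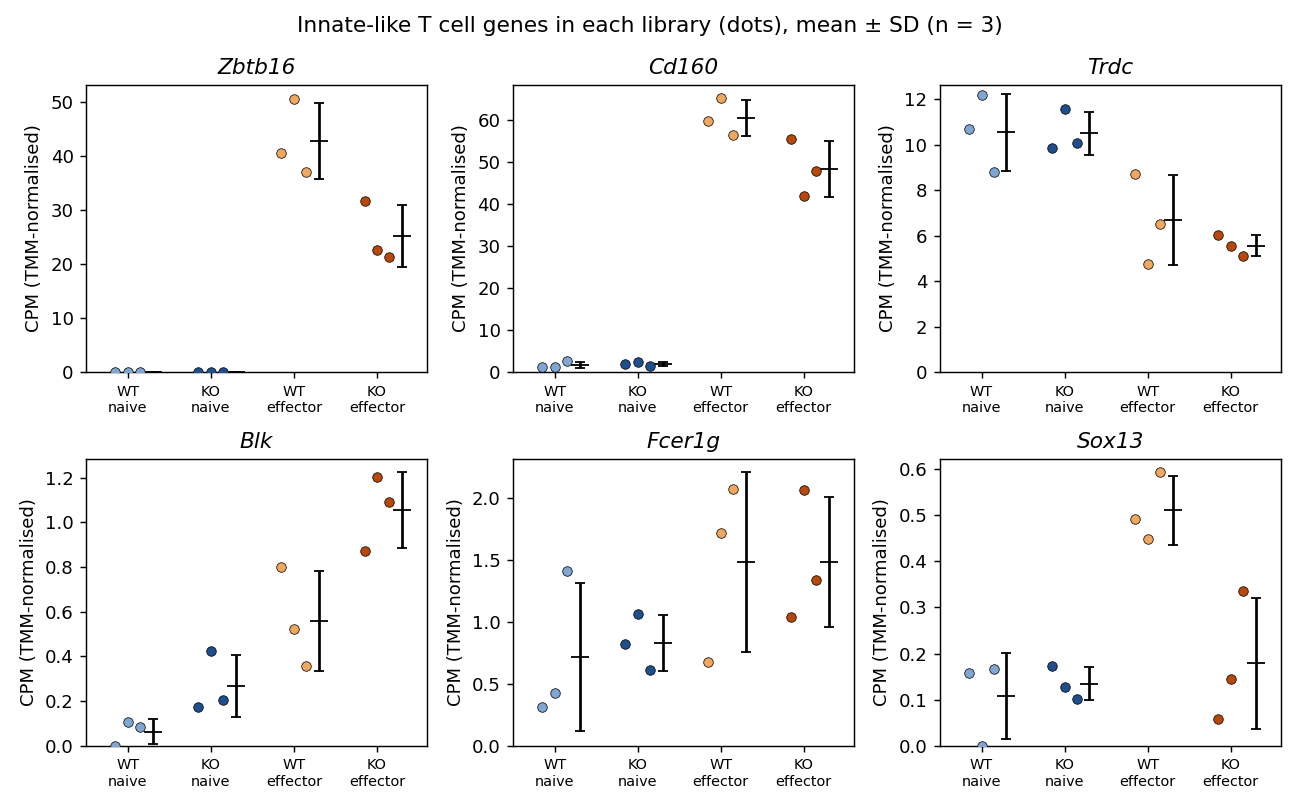
Level of each of the 6 genes in CPM (vertical axes, linear, each with its own scale) in the 12 libraries. Dots are libraries, and the bar beside them is the mean ± SD of the 3 libraries of a group. Zbtb16 and Cd160 are near 0 in naive libraries and lower in KO than in WT effector libraries, Trdc is lower in effector than in naive libraries, and the axes of Blk, Fcer1g and Sox13 end near or below 2 CPM.

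All 5 tested genes were called between effector and naive cells in WT, 4 higher and 1 lower, and 4 of 5 in KO, 3 higher and 1 lower. The background is high there: 56.2% of all tested genes were called in WT (30.2% higher, 25.9% lower) and 58.4% in KO (31.6% higher, 26.8% lower). Zbtb16 and Blk passed the filter on low counts only through effector libraries, so their calls in these contrasts were bound to follow. Between KO and WT, 1 of 5 was called in effector cells (Zbtb16), where 3.16% of all tested genes were, and 0 of 5 in naive cells, where 1.18% were. In naive cells 1 of the 5 had an unadjusted p under 0.05, and DESeq2 called 0 of the 3 to which it gave an adjusted p. The difference between the KO effects in the 2 cell types, the interaction, was called for 0 of 5 (0.145% of all tested genes), with 0 under an unadjusted p of 0.05 and 0 by DESeq2.

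Zbtb16 was lower in effector cells without Rinl. Zbtb16 (ENSMUSG00000066687, GRCm38 chr9:48654297-48836222, minus strand) had 0 counts in each WT naive library and 1, 2 and 1 counts in KO naive libraries 7, 8 and 9. The level was 40.7, 50.7 and 37.0 CPM in WT effector libraries 4, 5 and 6. KO effector libraries 10, 11 and 12 had 31.8, 22.6 and 21.3 CPM. Every KO effector library lay below every WT effector library, which was so for 8.73% of all tested genes, and every effector library lay far above every naive one. The means were 42.8 ± 7.07 and 25.2 ± 5.72 CPM (SD, n = 3 each). The log2 fold change of KO against WT effector cells was -0.75 ± 0.15 (SE; 95% interval -1.08 to -0.42; edgeR adjusted p = 0.024). In bulk RNA, fewer Zbtb16-positive cells and less Zbtb16 RNA per cell cannot be told apart. The call was lost without library 11 (-0.66, adjusted p = 0.13) and in a fit of the effector libraries alone (-0.75, adjusted p = 0.11), while 8 of 10 alternatives kept it and adjusted p ran from 7.9e-15 to 0.13.

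Against naive cells, Zbtb16 in WT effector cells stood 699-fold above a floor of 3 counts over the WT naive group (0.0604 CPM). With 0 counts in WT naive cells, the 95% counting interval of the ratio starts at 568. In KO cells 1271 effector counts faced 4 naive counts, a ratio of 421 with a 95% counting interval of 164 to 1548. These intervals cover counting error only. The 4 counts in KO naive cells equal 0.0604 CPM, no more than the WT floor, so no fold between the naive groups is given. The interaction for Zbtb16 had an edgeR adjusted p of 0.69.

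Many genes of mature NKT cells were lower together with Zbtb16. Of a list of 17, 10 were lower in KO than in WT effector cells, 0 higher and 7 not called; the background for lower calls is 1.72%. The median log2 fold change of the list was -0.47 against 0.0022 over all tested genes. These are genes that NKT cells share with other effector and cytotoxic T cells, so the list does not mark NKT cells alone. By the smallest p, the lower genes began with Nkg7, a granule protein (148 to 99.2 CPM, log2 -0.57), Tbx21, the T-bet factor of interferon-gamma programmes (93.4 to 61.8 CPM, -0.59), and Klrb1c, the NK1.1 receptor (77.4 to 56.1 CPM, -0.47). Next came Il17rb, a receptor for interleukin-25 found on some NKT cells (33.1 to 20.2 CPM, -0.71). Tbx21 had 79.0, 107 and 94.5 CPM in libraries 4, 5 and 6 of WT effector cells, against 65.6, 59.4 and 60.5 CPM in libraries 10, 11 and 12 of KO effector cells. Klrb1c stood at 82.4, 70.5 and 79.3 CPM in the former and at 62.8, 51.0 and 54.5 CPM in the latter. For both genes the genotypes did not overlap, as for 8.73% of all tested genes in this direction.

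The cytokine genes Il4 and Ifng and the lineage factor Gata3 of the same list were not called. Il4 (5.99 and 5.50 CPM), Ifng (10.7 and 8.19 CPM) and Gata3 (125 and 123 CPM) had these levels in WT and KO effector cells in turn, and Icos, a costimulatory receptor, 293 and 303 CPM, also with no call. The number of lower genes fell to 6 without library 5, without library 6 or without library 11, and ran up to 11 under the other alternatives. Cxcr6, Klrk1 and Id2 lost their calls in each of those 3 fits. Over 10 alternatives, Cxcr6 kept its call in 4, Klrk1 in 4 and Id2 in 6. DESeq2 called 8 of the 17 between KO and WT effector cells. In naive cells 2 of the 17 were called, both higher in KO, where 0.679% of all tested genes were higher: Ccl5, a chemokine (0.415 to 1.52 CPM), and Il2rb, a chain of the interleukin-2 and interleukin-15 receptor (87.7 to 107 CPM). The naive call of Ccl5 was lost without library 1, 2, 7 or 9 (adjusted p up to 0.086) and that of Il2rb without library 1, 2, 8 or 9 (up to 0.11). The list's median there was 0.41, or 0.30 with Il4, which was at 0 in WT naive cells, set to its bound, against 0 over all tested genes. All 17 were higher in effector than in naive cells in both genotypes, where 30.2% (WT) and 31.6% (KO) of all tested genes were. Genes such as Klrb1c and Tbx21 passed the filter on low counts only through effector libraries, so their calls here were bound to follow. The median of the list was 7.36 in WT (6.62 with Il4 at its bound) and 6.25 in KO, against 0.0064 and 0.0085 over all tested genes.

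**Figure D2:**
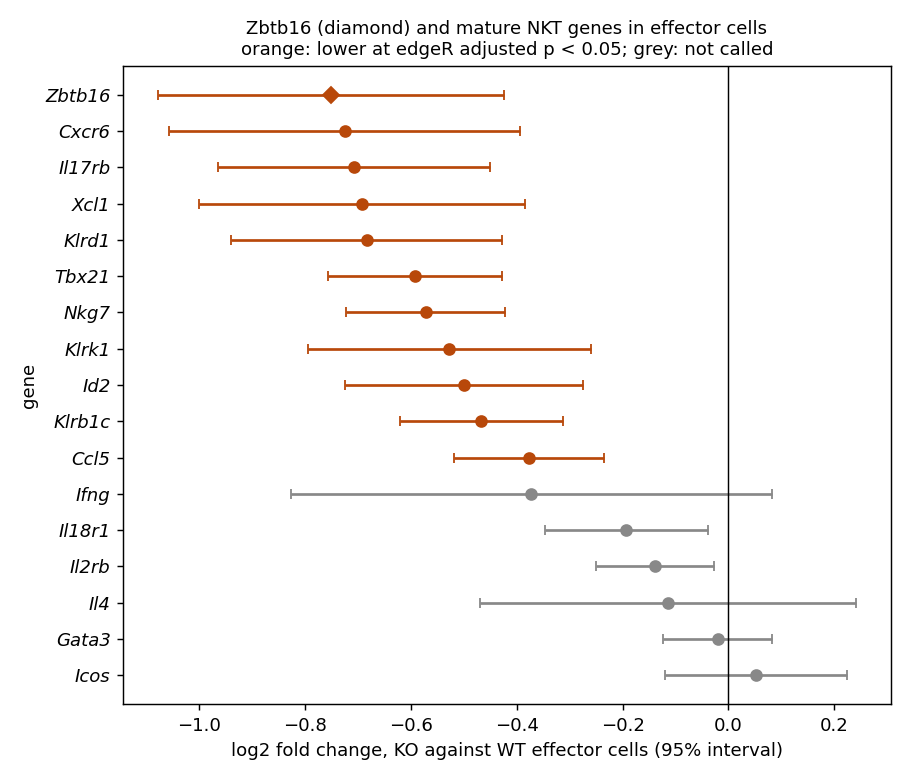
Log2 fold change of KO against WT effector cells (horizontal axis) with 95% intervals from the edgeR fit, for Zbtb16 (diamond) and 16 of the 17 genes of the mature NKT list (circles), 3 libraries per genotype; 1 uncalled gene is not shown. Orange marks an adjusted p under 0.05. Zbtb16 and 10 list genes lie left of 0 in orange, and the 6 grey genes shown were not called, Ifng among them with a wide interval and Icos to the right of 0.

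The receptor segments of invariant NKT cells can be read beside Zbtb16, and were chosen after their values were seen. These cells carry an alpha chain that joins Trav11 or its copy Trav11d to Traj18. Traj18 is shown as the segment that defines that chain; the letters are the GRCm38 germline segment at chr14:54200777-54200842, plus strand, 5′ to 3′, and the capitals mark the 12 bases that encode the motif common to J segments.
Traj18: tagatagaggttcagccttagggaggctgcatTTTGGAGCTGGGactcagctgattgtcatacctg
Trav11d had 21.4, 29.8 and 24.6 CPM in WT effector and 17.5, 14.4 and 15.7 CPM in KO effector libraries. The genotypes did not overlap, as for 8.73% of all tested genes in this direction. The log2 fold change of Trav11d was -0.67 ± 0.13 (edgeR adjusted p = 0.0049). Traj18 stood at 3.01, 4.25 and 3.44 CPM in the former and 3.02, 2.26 and 2.09 CPM in the latter, which overlapped (-0.52 ± 0.24, edgeR adjusted p = 0.29). Both segments were higher in effector than in naive cells of either genotype (Trav11d by 4.50 and 4.21, Traj18 by 2.17 and 1.23 on the log2 scale in WT and KO). The beta segments favoured by these cells were not called between KO and WT effector cells: Trbv13-2 had 104 and 94.9 CPM in WT and KO (-0.14, edgeR adjusted p = 0.18), Trbv29 22.1 and 16.8 CPM (-0.38, edgeR adjusted p = 0.10) and Trbv1 42.1 and 37.9 CPM (-0.15, edgeR adjusted p = 0.31). Unadjusted edgeR p was 0.017 for Trbv13-2, 0.0053 for Trbv29, 0.049 for Trbv1 and 0.041 for Traj18, all lower in KO. Trbv29 was lower in KO without overlap, as for 8.73% of all tested genes, while Trbv13-2 and Trbv1 overlapped. Conventional T cells also use all of these segments. Trav11 and Trav11d are identical over their 342 bases, so the value of Trav11d depends on how reads common to both were counted.

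Genes that act before Zbtb16 in NKT development were not called with loss of Rinl. Of 12 such genes, 0 were called in naive and 0 in effector cells (2 and 4 at an unadjusted p under 0.05, 0 and 0 by DESeq2), with medians of -0.02 and 0.09. In WT effector against naive cells 7 were higher and 2 lower, and in KO 7 and 1. Of all tested genes, 30.2% were higher and 25.9% lower in WT, and 31.6% and 26.8% in KO. Slamf1, a homotypic receptor that signals during NKT selection, rose from 21.1 ± 1.5 to 73.1 ± 6.14 CPM in WT, and Sh2d1a, the adaptor SAP of that receptor family, from 39.1 ± 0.54 to 77.3 ± 1.83 CPM. Fyn, the kinase that SAP recruits, rose by 0.68 and Egr2, a factor that acts on Zbtb16 in NKT precursors, by 1.94 on the log2 scale. Of 13 other BTB zinc finger genes tested, relatives of Zbtb16, 0 were called for KO against WT in either cell type; in effector cells 4 had an unadjusted p under 0.05 and DESeq2 called 1, and in naive cells these counts were 0 and 0. In WT effector against naive cells 6 were higher and 3 lower, against 30.2% and 25.9% of all tested genes. Among the 6, Zbtb32 rose from 0.143 ± 0.081 to 11.7 ± 1.83 CPM, and Bcl6, the repressor of follicular helper cells, by 0.91 on the log2 scale.

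Over the 12 libraries, the genes whose log2 profiles lay nearest to that of Zbtb16 were Cpne7, Zfp683 and Tbx21, with root mean square differences of 0.20, 0.23 and 0.27 among 11510 candidates. Cpne7 averaged 37.5 CPM in WT and 21.7 CPM in KO effector cells, and Zfp683 91.1 and 55.2 CPM. For Cd160 the nearest were Klrb1f (0.19), Tmem273 (0.23) and Tbkbp1 (0.25). For Trdc they included Magi3 (0.14) and Pfkfb4 (0.15), for Blk Marveld2 (0.15), Isg20 (0.16) and Tdrd7 (0.18), and for Fcer1g Anln (0.21), Clec12a (0.26) and Slc11a1 (0.27). No gene was among the 3 nearest of more than 1 of these 5 genes. Profiles of log2(CPM + 0.5) shrink changes at levels near or below 0.5 CPM, as for Blk. Blk averaged 0.063 CPM in WT naive and 1.05 CPM in KO effector cells, against 19.5 and 46.7 CPM for Isg20. A near profile at such levels therefore does not mean an equal fold change.

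Cd160 was the most abundant of the 6 in effector cells. Cd160 encodes a lipid-anchored receptor of NK cells, innate-like T cells and activated T cells that binds HVEM, the product of Tnfrsf14. Cd160 (ENSMUSG00000038304, chr3:96798763-96829351, minus strand) stood at 1.16, 1.29 and 2.57 CPM in WT naive and 1.90, 2.42 and 1.43 CPM in KO naive libraries. It had 59.8, 65.2 and 56.6 CPM in WT effector libraries 4, 5 and 6, against 55.4, 42.0 and 47.8 CPM in KO effector libraries 10, 11 and 12. All effector libraries were above all naive ones, as for 32.4% of tested genes in WT and 34% in KO. The genotypes overlapped in naive but not in effector cells, where 8.73% of tested genes were lower in KO without overlap. The rise from naive to effector cells was 5.27 ± 0.19 on the log2 scale in WT (edgeR adjusted p = 1.7e-12) and 4.63 ± 0.17 in KO (edgeR adjusted p = 2.4e-12). KO against WT effector cells gave -0.32 ± 0.11 (95% interval -0.56 to -0.08), which was not called (unadjusted p = 0.012, edgeR adjusted p = 0.16). It was called without library 10 (-0.43, adjusted p = 0.029) and with no filter on low counts (-0.32, adjusted p = 4.0e-04), and over all alternatives adjusted p ran from 4.0e-04 to 0.49. The interaction was -0.64 ± 0.34 (edgeR adjusted p = 0.60).

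Of the promoter windows of the 6 genes, those of Sox13, Fcer1g and Cd160 matched in the RefSeq table (GRCm38.p6). The window before the second start of Cd160 is shown because Cd160 had the highest effector level of the 6 and this window holds a T-box core, which the window before the first start (chr3:96829352-96829601) does not; it runs 5′ to 3′ along the minus strand at chr3:96814522-96814771, and the capitals mark a T-box core and a RUNX motif.
Cd160: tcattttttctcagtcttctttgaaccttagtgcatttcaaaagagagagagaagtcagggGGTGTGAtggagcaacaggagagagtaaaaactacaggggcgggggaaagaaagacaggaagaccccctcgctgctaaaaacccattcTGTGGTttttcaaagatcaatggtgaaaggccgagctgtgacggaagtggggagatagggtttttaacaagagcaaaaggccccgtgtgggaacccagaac
The T-box core GGTGTGA lies at bases 62 to 68 and the RUNX motif TGTGGT at bases 150 to 155 of the window, and they do not overlap. Searched on both strands, GGTGTGA is present in 3.33% of 32851 windows of 250 bases and TGTGGT in 14% of them. The EGR motif GCGTGGGCG (0.536% of windows) and the E-box CACCTG (17.2%) were not found in it. The window before the first start holds 1 RUNX motif, 1 E-box and no EGR motif. None of these motifs was found in the windows of Sox13 and Fcer1g. The shown window was chosen for its T-box core, whereas 3.33% is the share over windows not so chosen. A match describes the letters, not binding.

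Of the other genes of the HVEM axis, Tnfsf14 was lower in KO effector cells. Tnfsf14, which encodes LIGHT, another ligand of HVEM, rose from 0.408 ± 0.295 to 78.6 ± 4.11 CPM between WT naive and effector cells. In KO effector cells it stood at 65.7 ± 1.44 CPM (-0.26 ± 0.07, edgeR adjusted p = 0.036), with no overlap of libraries, as for 8.73% of tested genes. Tnfrsf14 itself stood at 56.4 ± 3.48 and 63.4 ± 5.97 CPM in WT and KO effector cells and Btla, an inhibitory receptor for HVEM, at 166 ± 11.6 and 179.8 ± 9.29 CPM; neither was called. Of these 4 axis genes, which include Cd244a, 1 was called lower and 0 higher in KO effector cells, against 1.72% and 1.45% of all tested genes. In naive cells 0 of the 4 were called (1 at an unadjusted p under 0.05, 0 by DESeq2).

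Trdc went the other way from the genes of the gamma chain. Trdc encodes the constant region of the delta chain and lies inside the alpha chain locus (ENSMUSG00000104876, chr14:54142851-54148868, plus strand). It stood at 10.7, 12.2 and 8.79 CPM in WT naive and 9.84, 11.6 and 10.1 CPM in KO naive libraries. It stood at 8.72, 4.78 and 6.52 CPM in WT effector and 6.03, 5.54 and 5.11 CPM in KO effector libraries. Every effector library lay below every naive library of its genotype, as for 29.1% of tested genes in WT and 29.9% in KO, the nearest being 8.72 and 8.79 CPM, and the genotypes overlapped in both cell types. From naive to effector cells it fell by 0.66 ± 0.16 on the log2 scale in WT (edgeR adjusted p = 0.0013) and fell by 0.91 ± 0.16 in KO (edgeR adjusted p = 4.4e-05). KO against WT gave -0.02 ± 0.15 in naive cells (95% interval -0.33 to 0.28) and -0.27 ± 0.18 in effector cells (-0.64 to 0.10), neither called. The span of Trdc shares 207 bases with Trdv5 and 3437 with Gm43434, both on the opposite strand; Trdv5 did not exceed 0.246 CPM in any library and Gm43434 had 0 counts in all 12.

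The 4 constant genes of the gamma chain were effector transcripts. Their sum was 2.59 ± 0.38 CPM in WT naive, 3.00 ± 0.13 in KO naive, 123 ± 5.25 in WT effector and 84.7 ± 15.0 in KO effector cells (SD, n = 3 each). Per gene length, Trdc and the gamma sum were close in WT naive cells, at 2.71 ± 0.43 and 2.85 ± 0.34 FPKM, and far apart in WT effector cells, at 1.72 ± 0.51 and 134 ± 5.82 FPKM. Alpha-beta T cells also transcribe gamma chain genes, so these levels do not count gamma-delta T cells. Of the 5 constant genes, Trdc among them, 4 were higher and 1 lower in effector against naive cells in both genotypes. Of all tested genes, 30.2% were higher and 25.9% lower in WT, and 31.6% and 26.8% in KO. Trgc3 passed the filter on low counts only through effector libraries, so its call there was bound to follow. In KO against WT effector cells 3 of the 5 were lower, where 1.72% of all tested genes were: Trgc1 (30.8 to 20.9 CPM, -0.55), Trgc2 (51.5 to 35.7 CPM, -0.53) and Trgc4 (36.6 to 25.0 CPM, -0.55). Trgc1 had 33.0, 31.6 and 27.6 CPM in WT effector and 24.5, 18.6 and 19.7 CPM in KO effector libraries. There was no overlap, as for 8.73% of all tested genes in this direction. The call of Trgc4 was lost without library 5, 11 or 12 and in a fit of the effector libraries alone, with adjusted p up to 0.083. In naive cells 0 of the 5 were called (0 at an unadjusted p under 0.05, 0 by DESeq2). Trgc1, Trgc2 and Trgc3 are 96.1% to 97.3% identical to each other in transcript sequence, so their single values depend on how shared reads were counted.

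**Figure D3:**
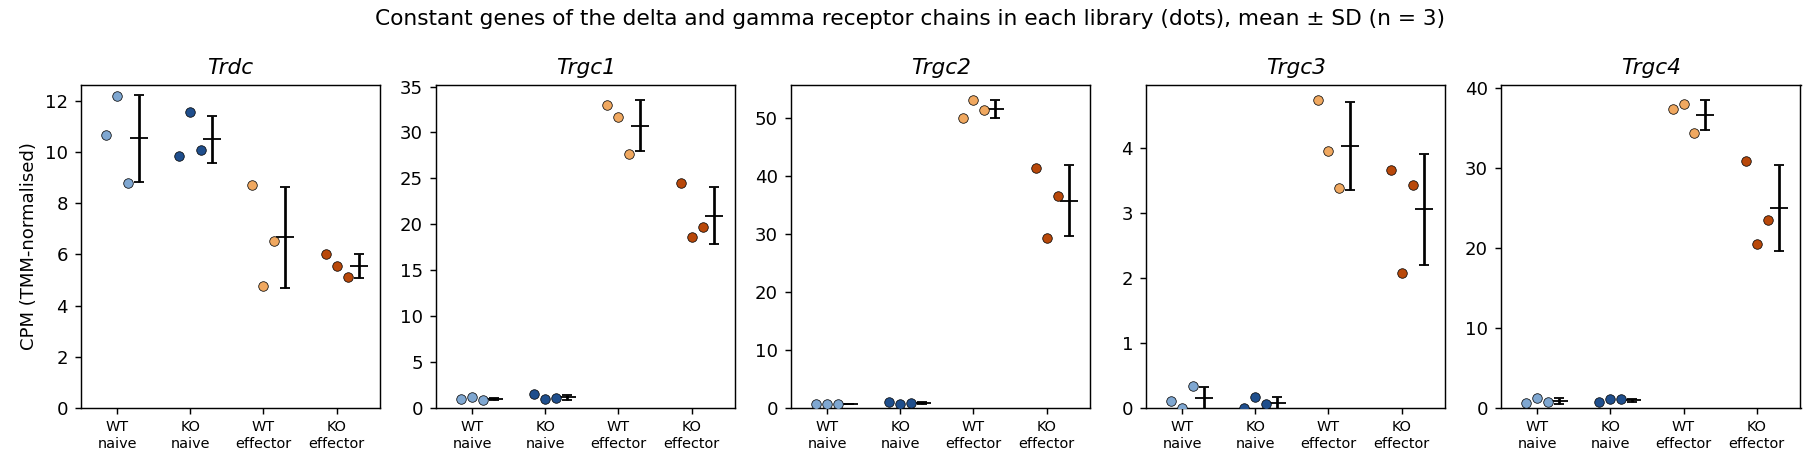
Level in CPM (vertical axes, linear, each with its own scale) of Trdc and of the gamma chain constant genes Trgc1 to Trgc4 in the 12 libraries. Dots are libraries and bars the mean ± SD of 3. Trdc is highest in naive libraries and the gamma genes in effector libraries, where Trgc1, Trgc2 and Trgc4 are lower in KO.

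Of 13 variable genes of the delta and gamma chains, 6 passed the filter. Trgv2 (11.9 and 8.99 CPM in WT and KO effector cells) and Trgv4 (9.32 and 6.09 CPM) were the most abundant. Trgv4 was the 1 of the 6 called lower in KO effector cells (-0.62 ± 0.17, edgeR adjusted p = 0.037), against 1.72% of all tested genes. DESeq2 called 0 of the 4 to which it gave an adjusted p. Among delta segments, Trdv1 stood at 1.11 and 0.968 CPM in WT naive and effector cells and was not called, while Trdv2-1 fell from 1.11 to 0.462 CPM (-1.24 ± 0.34, edgeR adjusted p = 0.0035). Trdv4, another delta segment, did not exceed a mean of 0.189 CPM in any group.

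Sox13 RNA was scarce. Sox13 (ENSMUSG00000070643, chr1:133382303-133424377, minus strand), a transcription factor of interleukin-17-producing gamma-delta T cells, had 46 counts in all 12 libraries. WT naive libraries had 3, 0 and 2 counts, KO naive 4, 3 and 2, WT effector 8, 6 and 10, and KO effector 1, 3 and 4. In CPM the 3 WT effector libraries, at 0.448 to 0.593, lay above every other library, of which the highest was at 0.335 CPM. Such separation is common: within WT, 32.4% of tested genes had all effector libraries above all naive ones. Between the effector groups, 8.73% of tested genes had all KO libraries below all WT ones. Sox13 is not among the tested genes. The ratio of summed counts was 5.12 for WT effector against WT naive cells (95% counting interval 1.92 to 17.2) and 0.311 for KO against WT effector cells (0.121 to 0.715). With no filter on low counts, edgeR called Sox13 higher in WT effector than naive cells (2.26, adjusted p = 0.0083) and did not call KO against WT effector cells (-1.62, adjusted p = 0.24).

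Most tested genes of the programme of interleukin-17-producing gamma-delta T cells, which T helper 17 cells share in large part, were higher in effector cells. RNA of the cytokine itself was scarce. Of the programme's 13 genes 11 were tested, and 10 were higher and 1 lower in effector against naive cells of both genotypes. Of all tested genes, 30.2% were higher and 25.9% lower in WT, and 31.6% and 26.8% in KO. Ccr6, a chemokine receptor, rose from 0.657 ± 0.269 to 57.6 ± 8.65 CPM in WT. Il23r had 0 counts in naive cells and averaged 3.05 and 3.51 CPM in WT and KO effector cells. It passed the filter on low counts only through effector libraries, so its call was bound to follow. Il17a and Il17f averaged at most 0.050 and 0.226 CPM in any group and were not tested. Sox4, a relative of Sox13, was the gene that fell, from 18.2 ± 2.04 to 3.00 ± 1.25 CPM in WT. Between genotypes, Cd163l1, the SCART1 scavenger receptor of gamma-delta T cells, was called lower in KO effector cells (5.99 ± 0.29 to 3.28 ± 0.49 CPM, -0.89 ± 0.17, edgeR adjusted p = 0.0047). It was the 1 of the 11 called there, where 1.72% of all tested genes were lower. In naive cells 0 of the 11 were called (3 at an unadjusted p under 0.05, 0 by DESeq2).

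Blk was low and ran higher in KO libraries of both cell types without a call. Blk (ENSMUSG00000014453, chr14:63372836-63417037, minus strand), a SRC family kinase known from B cells and from interleukin-17-producing gamma-delta T cells, had 0, 2 and 1 counts in WT naive and 4, 10 and 4 counts in KO naive libraries. It had 13, 7 and 6 counts in WT effector libraries 4, 5 and 6 and 15, 25 and 13 counts in KO effector libraries 10, 11 and 12. In CPM no KO library overlapped a WT library of its cell type, which was so in this direction for 10.7% of tested genes in naive and 9.18% in effector cells. The group means were 0.063 ± 0.056, 0.268 ± 0.137, 0.559 ± 0.224 and 1.05 ± 0.17 CPM in WT naive, KO naive, WT effector and KO effector cells. Effector against naive cells was called in WT (3.07 ± 0.71, edgeR adjusted p = 7.6e-04; ratio of summed counts 9.25, 95% counting interval 2.84 to 47.8) and in KO (1.94 ± 0.43, edgeR adjusted p = 4.4e-04). Its difference between KO and WT was 2.04 ± 0.79 in the naive state (edgeR adjusted p = 0.27) and 0.91 ± 0.40 in the effector state (edgeR adjusted p = 0.26). Blk passed the filter on low counts mainly through KO effector libraries 10, 11 and 12, so the filter favoured a higher level there. Its calls against naive cells were bound to follow, and its values of KO against WT effector cells are described only.

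Of 12 B cell markers, Ighm was far above the rest, at 599.8 ± 17.0 CPM in WT naive, 554.6 ± 29.6 in KO naive, 964 ± 91.3 in WT effector and 1143 ± 116 in KO effector cells, with no call between genotypes. Leaving it out, a choice made after this level was seen, the 11 others summed to 3.73 to 6.88 CPM in WT naive, 7.21 to 9.63 in KO naive, 27.9 to 34.7 in WT effector and 26.2 to 31.6 in KO effector libraries, with 1 of them at 0 in WT naive cells. Cd22 alone averaged 17.5 and 11.5 CPM in WT and KO effector cells, while Cd79a, a chain of the B cell receptor complex, did not exceed a mean of 1.40 CPM in any group. Between genotypes the sum of the 11 was higher in KO naive libraries without overlap, as were 10.7% of all tested genes singly. Of the 8 tested markers, Ighm included, 0 were called there (3 at an unadjusted p under 0.05, 0 by DESeq2). In effector libraries the sum overlapped, Cd22 being called lower in KO (edgeR adjusted p = 0.035). The median log2 fold change of the 8 tested markers was 0.27 in effector cells. The part of B cells in the values of Blk was not tested. Among 7 other SRC family kinases, Lck, the main one of T cells, stayed between means of 1033 and 1066 CPM. Lyn, which myeloid and B cells also express, was called higher in KO naive cells (0.351 ± 0.079 to 1.00 ± 0.11 CPM, 1.52 ± 0.35, edgeR adjusted p = 0.026). It was the 1 of the 7 called there, where 0.679% of all tested genes were higher. Between the effector groups 0 of the 7 were called (1 at an unadjusted p under 0.05, 0 by DESeq2).

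Fcer1g did not differ between genotypes beyond its spread. Fcer1g (ENSMUSG00000058715, chr1:171229572-171234365, minus strand) encodes the common gamma chain of Fc receptors, a signalling subunit of myeloid and NK cells, mast cells and some innate-like T cells. It had 6, 8 and 17 counts in WT naive, 19, 25 and 12 in KO naive, 11, 23 and 35 in WT effector and 18, 43 and 16 in KO effector libraries. All 4 groups overlapped in CPM. Effector against naive cells gave 1.21 ± 0.50 in WT (edgeR adjusted p = 0.049) and 0.85 ± 0.44 in KO (edgeR adjusted p = 0.11). The WT call was lost without library 1, 2, 5 or 6 and in a fit of the WT libraries alone, with adjusted p from 0.0022 to 0.23 over the alternatives. KO against WT gave 0.39 ± 0.52 in naive cells (95% interval -0.70 to 1.49) and 0.03 ± 0.42 in effector cells (-0.86 to 0.93).

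Within 3 of the 4 groups, the library with the highest sum of myeloid markers also had the highest Fcer1g. The 12 markers summed to 5.15, 7.79 and 16.5 CPM in WT naive libraries 1, 2 and 3, where Fcer1g stood at 0.316, 0.430 and 1.41 CPM. They summed to 6.08, 11.8 and 29.6 CPM in WT effector libraries 4, 5 and 6, where Fcer1g stood at 0.676, 1.72 and 2.08 CPM. In KO naive libraries 7, 8 and 9 the sums were 17.4, 29.8 and 19.2 CPM, with Fcer1g at 0.820, 1.06 and 0.615 CPM. Libraries 10, 11 and 12 of KO effector cells had sums of 21.6, 32.5 and 36.7 CPM and Fcer1g at 1.04, 2.07 and 1.34 CPM. The exception was KO effector cells, where library 12 had the highest sum and library 11 the highest Fcer1g. Between genotypes the sum was higher in every KO naive than in every WT naive library, as were 10.7% of all tested genes singly, whereas Fcer1g overlapped. Of the 8 tested myeloid markers 0 were called in that comparison (3 at an unadjusted p under 0.05, 0 by DESeq2). No marker was at 0 throughout a group, and Lyz2 averaged 2.25, 8.93, 6.35 and 14.3 CPM in WT naive, KO naive, WT effector and KO effector cells. Markers of mast cells and basophils summed to no more than 2.61 CPM in any library. The part of these cells in the values of Fcer1g was not tested.

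Partners of the Fc receptor gamma chain changed in both directions. Of 13 such genes 9 were tested, and in WT effector against naive cells 5 were higher and 2 lower. The shares over all tested genes were 30.2% and 25.9%. The T cell signalling genes Zap70 and Lcp2 rose by 0.68 and 0.60 on the log2 scale, and Cd247, the zeta chain that the gamma chain can replace in receptor complexes, fell from 533 ± 29.0 to 397 ± 7.05 CPM. Cd247 was higher in KO than in WT effector cells, at 449 ± 11.1 CPM (0.18 ± 0.05, edgeR adjusted p = 0.034), the 1 call of the list in that comparison, where 1.45% of all tested genes were higher. Fcer1a and Ms4a2, the other chains of the mast cell IgE receptor, averaged at most 0.035 and 0.235 CPM.

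**Figure D4:**
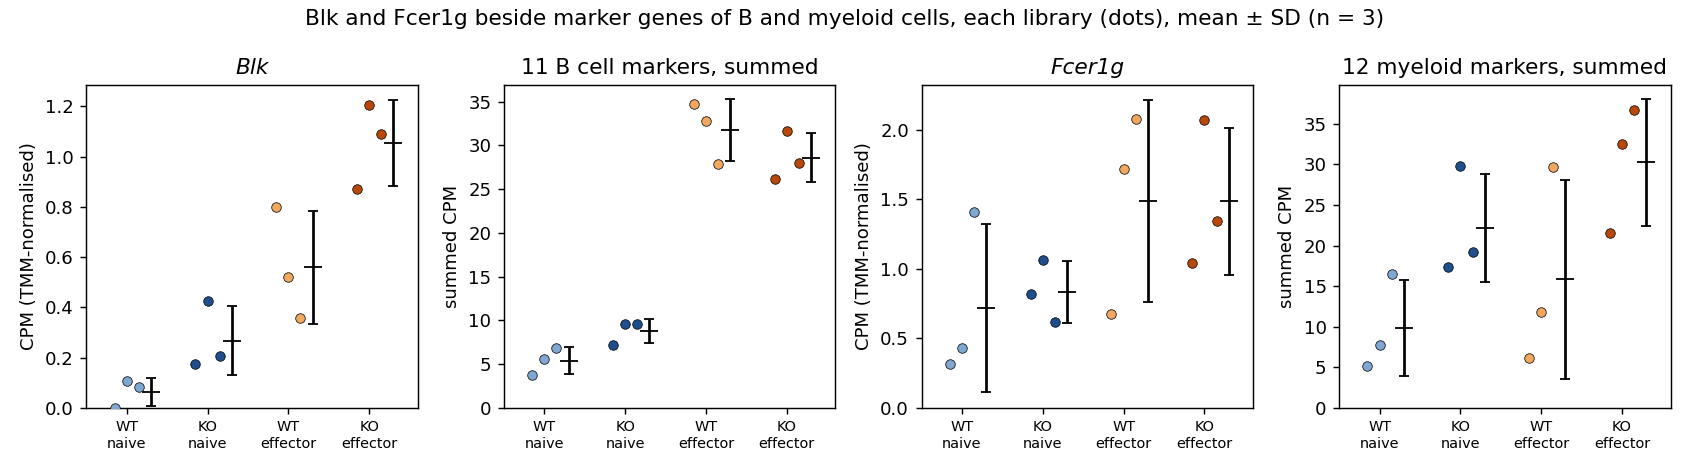
Levels in CPM (vertical axes, linear, each with its own scale) of Blk, the sum of 11 B cell markers without Ighm, Fcer1g, and the sum of 12 myeloid markers in the 12 libraries. Dots are libraries and bars the mean ± SD of 3. The B cell sum is highest in the effector groups of both genotypes, and the myeloid sum runs from 5.15 to 36.7 CPM, in the order of Fcer1g within WT naive and within WT effector libraries.

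Markers of NK cells, which share Klrb1c and other receptors with NKT cells, summed to 51.7 to 58.8 CPM in all naive libraries, 133 to 153 CPM in WT effector and 91.7 to 115 CPM in KO effector libraries. Of these 9 markers 6 were tested, and Klrb1c was the 1 called lower in KO effector cells, against 1.72% of all tested genes. In that comparison 4 of the 6 had an unadjusted p under 0.05 and DESeq2 called 2. The median log2 fold change of the 6 was -0.40. Of the 9 markers, 3 were at 0 throughout WT naive and 1 throughout WT effector cells. Ncr1, the defining NK receptor NKp46, did not exceed a mean of 0.758 CPM, and Eomes averaged 22.2 and 20.4 CPM in WT and KO effector cells. The part of NK cells in the values of Zbtb16 and Cd160 was not tested.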

How the data were processed

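RNA of sorted cells was made into libraries with a stranded mRNA kit, per the labels' protocols. The authors deposited raw counts per gene as whole numbers, and their deposited FPKM table holds the same 12 libraries per gene length, per the file headers. The submitters' processing notes name STAR, Picard and DESeq2 1.30.0, and mm10 and GRCm38 as builds. Which counter was used, with which strand setting and what rule for shared reads, is not given in these sources. All columns belong to samples of the series, and 0 rows lacked a gene name.

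Counts were analysed with R 4.3.3 and edgeR 4.0.16: filterByExpr by group, TMM (factors 0.968 to 1.04), and 1 robust quasi-likelihood fit of all 12 libraries with a coefficient per group (biological coefficient of variation 5.21%). P-values were adjusted by the Benjamini-Hochberg method over all 15905 tested genes at 0.05. The fit was tested on simulated data. By a chi-square test of counts, no library was a repeat deposit of another in its group; whether they are independent animals is not known. Ratios of summed counts have exact conditional 95% intervals. FPKM were used only to compare levels between genes. Lists are described by counts and medians, without a test. Sequences came from RefSeq and GENCODE tables (Biopython 1.88).

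The 6 genes, the lists and the alternatives were chosen with earlier results of these data known. Named genes are the 6, up to 4 called genes per list by p, genes not called where a list is described, and the 3 genes with the smallest root mean square difference of centred log2(CPM + 0.5) profiles, receptor segments, pseudogenes and gene models without a proper name left out; others are said to be chosen after their values were seen, as were Cd22, Cd79a, Lyz2 and Eomes among the markers. Alternatives were DESeq2's size factors, DESeq2 1.42.0, no filter on low counts, only the groups compared, and each library left out. Some genes are counted in the lists but not reported here.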

Additional observations from a re-analysis of the deposited data

Results flagged for a closer look

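In the mature NKT list of 17 genes, 2 responded to loss of Rinl differently in the 2 cell types, by the interaction term. The interaction was called for 0.145% of all tested genes. Of the 17 genes, 8 had an unadjusted p under 0.05 for it and DESeq2 called 4. Ccl5 was higher in KO than in WT naive cells (log2 1.88 ± 0.37) and lower in KO than in WT effector cells (-0.38 ± 0.07), a difference of -2.25 (edgeR adjusted p = 0.019). The call was lost without library 1, 2, 7 or 11, and adjusted p ran from 6.0e-10 to 0.084 over 15 alternatives. Il2rb was higher in KO naive cells (0.30 ± 0.06) and not called in effector cells (-0.14 ± 0.05), a difference of -0.44 (edgeR adjusted p = 0.019). Its call was lost without library 2, 8 or 9, and adjusted p ran from 2.0e-07 to 0.11 over 15 alternatives.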

How the results depend on the processing

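No paired analysis was possible because the columns of the deposited tables carry no replicate number of the sample titles. Effector against naive counts of called genes stayed within 1.5 times of the main value under all 16 alternatives in each genotype. The number called for KO against WT in naive cells was 187, against 501 with no filter on low counts, 528 with only the groups compared and 66 to 255 with a library left out. In effector cells it was 503, against 959, 230 and 194 to 662. The interaction gave 23 genes, against 61 with DESeq2, 277 with no filter and 10 to 85 with a library left out. The count of 10 mature NKT genes lower in KO effector cells ran from 6 to 11 with a library left out. Without single libraries the sign of 3 uncalled values turned: Trdc in naive cells ran from -0.11 to 0.10, Fcer1g in effector cells from -0.34 to 0.39, and the Fcer1g interaction from -1.15 to 0.014. The cause of these shifts was not tested. Depth limits Blk, Fcer1g and Sox13: 3 counts over a group equal 0.0453 to 0.0645 CPM.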
